A study of Rattus norvegicus with 19 samples.

Results

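Interferon response genes are the genes that a cell switches on when interferon, a secreted warning signal of infection, binds its receptors. Described here are 9 of them in rat liver, namely Oas1a, Isg15, Ifit3, Mx1, Mx2, Irf1, Irf7, Stat2 and Gbp2. They were chosen as every probe set (a group of short array probes for 1 transcript) that was annotated to exactly 1 gene and that gene was in the list. All 9 were found, of 13811 genes so annotated, with 11 probe sets of 31142 on the 2 array types, 10 on the first and 1, for Isg15, on the second. Adult rats had been fasted overnight and were injected once into the abdomen with pregnenolone-16α-carbonitrile (PCN) at 100 mg/kg or with corn oil, and livers were taken 8 h later. PCN is an agonist of the pregnane X receptor of rodents, a nuclear receptor that controls drug metabolism genes, and corn oil is its vehicle. Strain and sex were not given in the sources used here, and both groups shared the fast, the injection and the time. The labels number 5 biological replicates in each group. The first array type had 5 corn oil and 5 PCN arrays, and the second had 4 corn oil arrays (none of replicate 2 among the values used here) and 5 PCN arrays. The study asked whether PCN acts on genes other than those of drug metabolism, and the comparison here asks whether interferon response genes differed between the groups and whether any difference was shared by the animals or carried by single ones.

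Type I interferon signals through the kinases Jak1 and Tyk2 to a complex that contains Stat2 and Irf9 and binds the interferon-stimulated response element of its target genes. Targets of interferon-gamma often carry another sequence, the gamma-activated site. Target genes include sensors of double-stranded RNA such as the Oas family, the ubiquitin-like modifier Isg15, the Mx and Gbp GTPases, and the transcription factors Irf1 and Irf7, which extend the response. In liver, hepatocytes as well as Kupffer cells, the resident macrophages, respond to interferon.

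The promoters show which members carry these sequences close to the gene start. RefSeq promoters of the rat assembly GRCr8 (250 bases before to 50 after the start) matched 7 of the 9 members, and Mx2 and Isg15 had no entry. The letters searched were GAAA, any 2 bases and GAAA for the response element (TTTC, any 2 bases and TTTC on the other strand) and TTCNNNGAA for the gamma-activated site, which reads the same on both strands. The response element was found in 4 of the 7 (Oas1a, Irf7, Ifit3 and Gbp2), against 3.92% of 33469 promoters of the same length. The gamma-activated site was found in 2 of the 7 (Irf1 and Oas1a), against 8.87% of them. The promoters of Mx1 and Stat2 held neither set of letters in this window, which says nothing of other letters or other positions. A match is a description of the letters and not evidence of binding. The 5 promoters with a response element are shown first, including that of Oas1i, a close relative of Oas1a that is described further on, with the matched bases in capitals. They lie at chr12:41330216-41330515 (+ strand, Oas1a), chr12:41284976-41285275 (+ strand, Oas1i), chr1:205799974-205800273 (- strand, Irf7), chr1:241527076-241527375 (+ strand, Ifit3) and chr2:234005477-234005776 (+ strand, Gbp2). The promoter of Irf1, at chr10:38417685-38417984 (+ strand), has its gamma-activated site in capitals. In Oas1a and Oas1i 2 response elements overlap, which gives a run longer than in the others.
Oas1a: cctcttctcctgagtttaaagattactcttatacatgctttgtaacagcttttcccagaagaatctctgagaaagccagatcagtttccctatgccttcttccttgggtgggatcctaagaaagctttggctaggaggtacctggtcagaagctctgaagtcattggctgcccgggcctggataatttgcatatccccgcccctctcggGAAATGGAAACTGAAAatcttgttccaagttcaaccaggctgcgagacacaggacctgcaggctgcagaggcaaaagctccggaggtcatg
Oas1i: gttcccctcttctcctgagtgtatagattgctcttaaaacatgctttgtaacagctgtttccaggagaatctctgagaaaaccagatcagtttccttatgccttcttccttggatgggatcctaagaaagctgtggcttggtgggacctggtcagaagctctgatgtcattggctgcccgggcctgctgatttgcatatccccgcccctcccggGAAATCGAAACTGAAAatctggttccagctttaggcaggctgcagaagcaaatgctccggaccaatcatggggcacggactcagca
Irf7: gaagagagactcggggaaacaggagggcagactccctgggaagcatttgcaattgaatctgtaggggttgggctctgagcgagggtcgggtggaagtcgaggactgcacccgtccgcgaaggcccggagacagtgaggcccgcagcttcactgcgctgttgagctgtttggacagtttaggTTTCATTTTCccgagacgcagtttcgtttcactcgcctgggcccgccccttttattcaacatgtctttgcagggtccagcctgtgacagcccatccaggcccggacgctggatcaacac
Ifit3: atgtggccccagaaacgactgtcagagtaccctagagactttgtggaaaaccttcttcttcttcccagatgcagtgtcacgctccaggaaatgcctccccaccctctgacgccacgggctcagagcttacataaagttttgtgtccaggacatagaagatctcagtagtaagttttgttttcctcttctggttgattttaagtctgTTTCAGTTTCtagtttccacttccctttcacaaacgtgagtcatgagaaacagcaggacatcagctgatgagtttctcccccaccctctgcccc
Gbp2: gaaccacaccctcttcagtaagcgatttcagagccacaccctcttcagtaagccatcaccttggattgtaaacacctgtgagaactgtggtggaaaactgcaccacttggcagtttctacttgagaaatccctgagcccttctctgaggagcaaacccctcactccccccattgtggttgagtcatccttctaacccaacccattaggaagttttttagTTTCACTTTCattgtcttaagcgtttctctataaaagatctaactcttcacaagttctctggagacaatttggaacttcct
Irf1: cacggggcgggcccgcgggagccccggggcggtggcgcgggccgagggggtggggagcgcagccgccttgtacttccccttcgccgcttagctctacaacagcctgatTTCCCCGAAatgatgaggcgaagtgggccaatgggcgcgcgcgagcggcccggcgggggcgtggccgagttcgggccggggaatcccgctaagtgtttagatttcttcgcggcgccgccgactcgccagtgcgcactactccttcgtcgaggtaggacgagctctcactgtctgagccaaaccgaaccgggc
The first response element began 41 bases before the start in Oas1a, 36 in Oas1i, 69 in Irf7, 44 in Ifit3 and 31 in Gbp2. The gamma-activated site of Irf1 began 142 bases before the start, and that of Oas1a, not in capitals here, 199 bases before it.

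As a check of the groups, the 5 genes taken as known PCN targets were all higher after PCN, from Cyp3a23-3a1 (0.65 on the log2 scale) to Alas1 (1.74), which makes the first intermediate of heme. Array medians lay between 7.72 and 7.81 on the first array type and between 6.25 and 6.33 on the second, on the log2 scale of the deposited values. The tissue label was checked against 12 hepatocyte marker probe sets, whose mean per array was between 12.83 and 13.19 on the first array type, and none of the 12 was called (1 higher and 1 lower at an unadjusted p below 0.05). Arrays carry no read depth, so the number of arrays limits the precision.

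Among the members 1 probe set rose after PCN, that of Oas1a, and none fell. That is 1 of the 9 member probe sets tested on the first array type, where 2.31% of the 11106 tested probe sets were called higher and 0.945% lower (limma, Benjamini-Hochberg adjusted p below 0.05). On the second array type Isg15 was the only member and was not called, where 3.76% of 10693 were called higher and 1.64% lower. On the first array type 7 of the 9 log2 fold changes were positive, against 5555 of all 11106 tested, with a median of 0.20. With a term for 2 sets of arrays, defined beside Oas1a and largely overlapping with treatment, 1 of the 9 was positive, that of Oas1a. In none of the 9 did the groups separate, against 6.04% of all tested. An 11th probe set, for Mx2, was below the filter on dim probe sets and was not tested. In whole liver, a change in the number of cells of a type and a change in RNA per cell cannot be told apart.

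**Figure D1:**
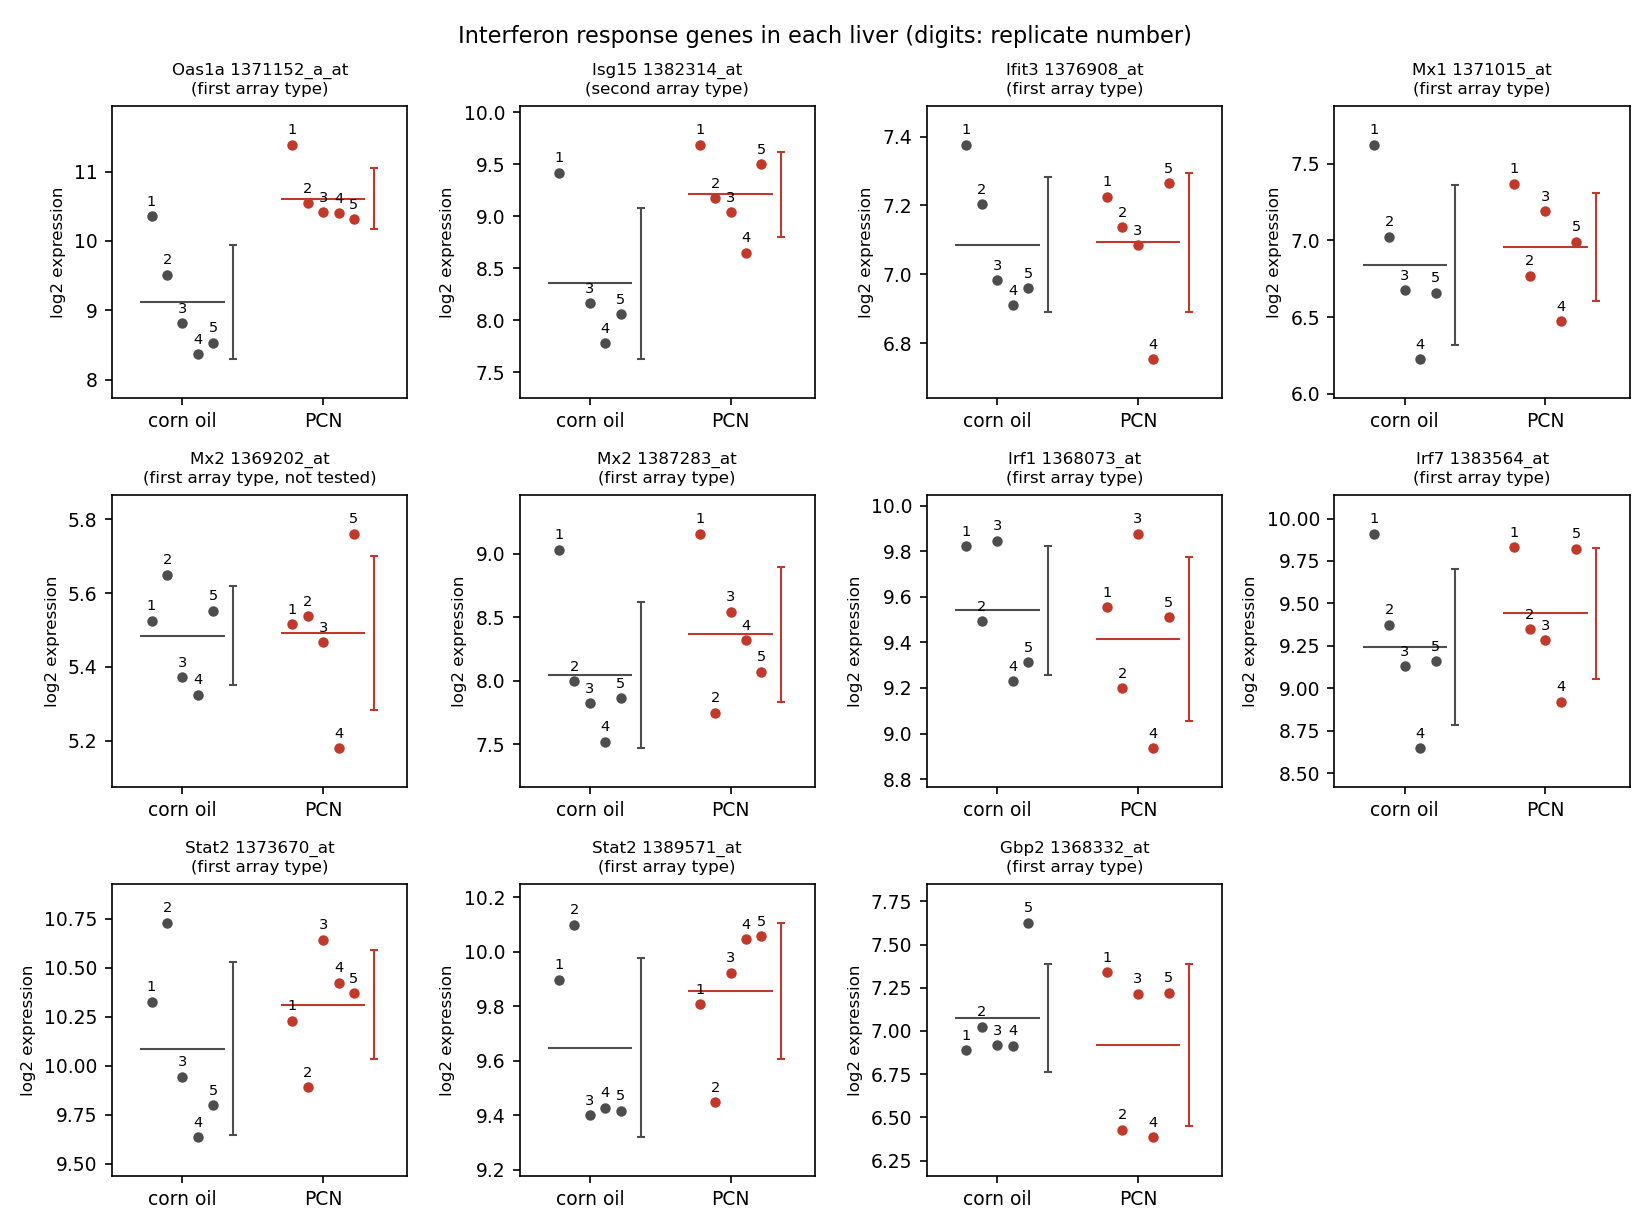
Deposited log2 expression of each member probe set (vertical axis, its own scale in each panel) by group, with a point for each array and its replicate number, a line at the group mean and a bar of 1 SD on each side. Oas1a reads between 10.31 and 11.39 after PCN, against 8.37 to 9.51 in corn oil replicates 2 to 5 and 10.36 in corn oil replicate 1.

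Oas1a encodes an oligoadenylate synthetase, an enzyme that senses double-stranded RNA and activates RNase L. Its probe set 1371152_a_at read 10.36, 9.51, 8.81, 8.37 and 8.54 in corn oil replicates 1 to 5. It read 11.39, 10.55, 10.41, 10.40 and 10.31 in PCN replicates 1 to 5. Thus 4 of the 5 PCN arrays lay above every corn oil array, and the lowest PCN array lay 0.05 below the highest corn oil array, replicate 1. The mean rose from 9.12 ± 0.82 (SD, n = 5) to 10.61 ± 0.44 (SD, n = 5), a log2 fold change of 1.49 ± 0.35 (SE) or 2.82-fold. The adjusted p was 0.0378 (limma), and an exact two-sided permutation test over 252 regroupings gave p = 0.0159, where the smallest possible is 0.00794.

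The rise of Oas1a was shared by the PCN animals in the sense that all 5 exceeded the 4 lower corn oil arrays, the lowest PCN array by 0.80 over the second highest corn oil array. A single animal in each group stood above its group: PCN replicate 1 was 0.84 above the next PCN array, and corn oil replicate 1 was 0.85 above the next corn oil array. The log2 fold change was 1.30 when PCN replicate 1 was omitted and 1.80 when corn oil replicate 1 was. Over the 10 possible omissions of 1 array it stayed between 1.30 and 1.80. The call was less firm than the direction. The adjusted p was 0.00561 when corn oil replicate 1 was omitted (2.14% of all tested were then called higher) and 0.0384 when corn oil replicate 2 was, and it passed 0.05 without any of the other 8 arrays. It was then 0.0868, 0.0974 and 0.0894 without corn oil replicates 3, 4 and 5, and 0.0925, 0.0575, 0.0724, 0.0781 and 0.0590 without PCN replicates 1 to 5. A term for 2 sets of arrays, known from earlier results of these data (corn oil replicate 1 with PCN replicates 1, 3, 4 and 5 against the others), lowered the difference to 1.0 with an adjusted p of 0.287. The labels name no such sets. The first set holds 4 of the 5 PCN arrays and 1 of the 5 corn oil arrays. The term thus overlaps largely with treatment, and they cannot be fully told apart. Oas1a has close relatives in the rat, and signal that they may share with its probes was not tested.

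Isg15, a ubiquitin-like protein that is joined to other proteins during an interferon response, gave the next highest difference on a different array type. Its probe set 1382314_at read 9.42, 8.16, 7.78 and 8.06 in corn oil replicates 1, 3, 4 and 5. It read 9.69, 9.18, 9.04, 8.65 and 9.50 in PCN replicates 1 to 5. The groups overlapped through 1 array: corn oil replicate 1 lay 1.25 above the next corn oil array, while the lowest PCN array lay 0.48 above it. The means were 8.36 ± 0.73 (SD, n = 4) and 9.21 ± 0.41 (SD, n = 5), a log2 fold change of 0.86 ± 0.30 (SE) or 1.81-fold. That did not pass the threshold (limma adjusted p = 0.102, and exact two-sided permutation p = 0.0714). Without corn oil replicate 1 the log2 fold change was 1.21 with an adjusted p of 0.0194. The groups then did not overlap, which follows from leaving out the only array that overlapped. How many of all probe sets separate without that array was not counted. In that comparison 1.31% of tested probe sets were called higher. Isg15 stayed uncalled in the other 8 omissions, with the lowest difference without corn oil replicate 4 (0.66, adjusted p = 0.239). It also stayed uncalled with quantile normalization (0.68, adjusted p = 0.221), cyclic loess (0.73, 0.186) and an unmoderated test (0.217). With each array centred on the shared probe sets, those that the 2 array types have in common, it was 0.58 with an adjusted p of 0.0369. Both changes together, a combination chosen after seeing the data, gave 0.98 and 0.000779. The centring moved the median of all probe sets from -0.03 to -0.31. Isg15 lay 0.89 above the median as deposited, which centring leaves as it is, and 0.70 above it with quantile normalization.

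Oas1a and Isg15 were the only members with a difference over 0.5 on the log2 scale. Ifit3, Mx1 and Mx2, further antiviral effectors, had smaller differences. Ifit3, which works in a complex with relatives that bind viral RNA, read 7.38, 7.20, 6.98, 6.91 and 6.96 in corn oil and 7.23, 7.14, 7.08, 6.75 and 7.26 after PCN, in replicate order. Its groups overlapped over most of their range, with a log2 fold change of 0.01 ± 0.12 (SE, adjusted p = 0.981). Mx1, a GTPase that blocks influenza-like viruses in the nucleus, read 7.62, 7.02, 6.67, 6.23 and 6.66 in corn oil and 7.37, 6.77, 7.19, 6.47 and 6.99 after PCN. The highest reading was again that of corn oil replicate 1, and the log2 fold change was 0.12 ± 0.24 (SE, adjusted p = 0.832).

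Mx2, a relative of Mx1, had 2 probe sets. The brighter, 1387283_at, read 9.03, 7.99, 7.82, 7.52 and 7.86 in corn oil and 9.16, 7.75, 8.54, 8.32 and 8.07 after PCN. Replicate 1 was the highest array in each group, by 1.04 over the next corn oil array and by 0.61 over the next PCN array. The log2 fold change was 0.32 ± 0.29 (SE, adjusted p = 0.614), and 0.57 without corn oil replicate 1, where it did not pass either. The dimmer, 1369202_at, averaged 5.49 ± 0.13 (SD, n = 5) in corn oil and 5.49 ± 0.21 (SD, n = 5) after PCN, below the filter level of 6.67, and it gives no information on a rise.

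None of the transcription factors passed the test. Irf1, which is induced most strongly by interferon-gamma, read 9.82, 9.49, 9.85, 9.23 and 9.31 in corn oil and 9.55, 9.20, 9.88, 8.94 and 9.51 after PCN. The PCN readings enclosed the corn oil readings, and its log2 fold change was -0.13 ± 0.18 (SE, adjusted p = 0.763). Irf7, which drives the later wave of type I interferon production, read 9.91, 9.37, 9.13, 8.65 and 9.16 in corn oil and 9.83, 9.35, 9.28, 8.92 and 9.82 after PCN. The highest of the 10 arrays was corn oil replicate 1, and the log2 fold change was 0.20 ± 0.23 (SE, adjusted p = 0.702).

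Stat2, the subunit of the type I complex that carries its activation domain, had 2 probe sets that ranked the arrays in a like way. Probe set 1373670_at read 10.33, 10.73, 9.94, 9.64 and 9.80 in corn oil and 10.23, 9.89, 10.64, 10.42 and 10.37 after PCN. Probe set 1389571_at read 9.90, 10.10, 9.40, 9.43 and 9.42 in corn oil and 9.81, 9.45, 9.92, 10.04 and 10.06 after PCN. In both, corn oil replicates 1 and 2 were the high corn oil arrays and PCN replicate 2 was the low PCN array. The log2 fold changes were 0.22 ± 0.20 (SE, adjusted p = 0.610) and 0.21 ± 0.17 (SE, adjusted p = 0.563).

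Gbp2, a guanylate-binding GTPase induced mainly by interferon-gamma, read 6.89, 7.02, 6.92, 6.91 and 7.63 in corn oil and 7.34, 6.43, 7.22, 6.39 and 7.22 after PCN. Corn oil replicate 5 stood above all other arrays, and PCN replicates 2 and 4 stood below all others. Its log2 fold change was -0.16 ± 0.21 (SE, adjusted p = 0.748), the lowest of the members.

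**Figure D2:**
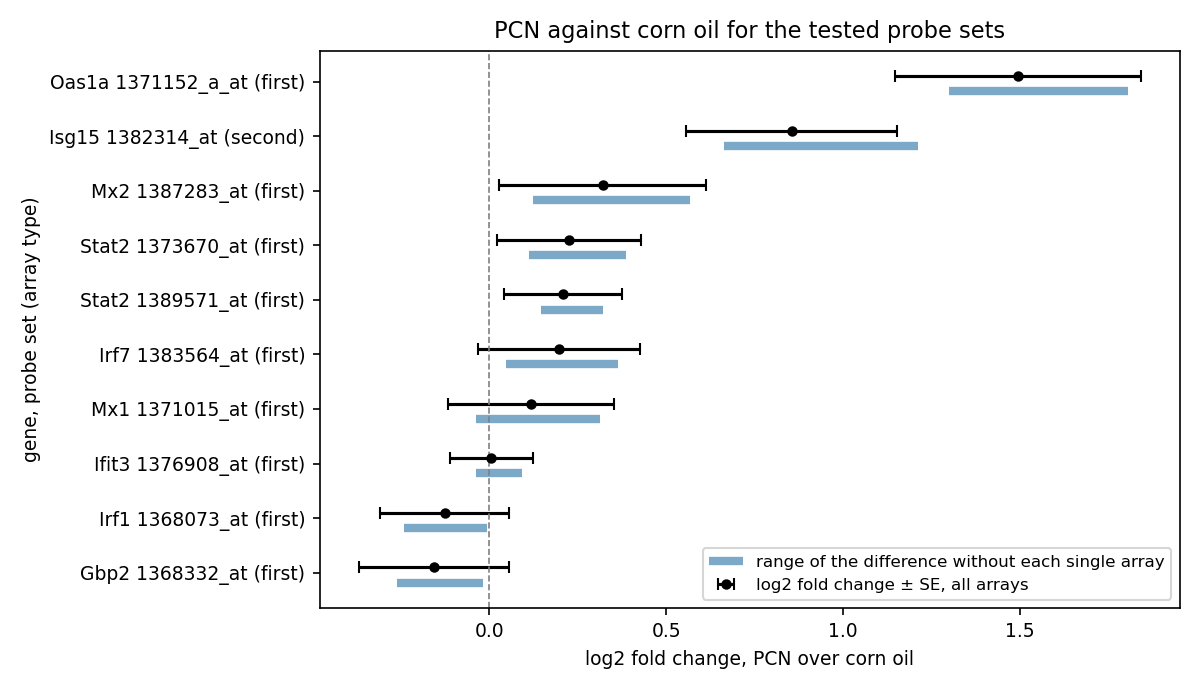
Log2 fold change of PCN over corn oil for the 10 tested member probe sets (point, with a bar of 1 SE on each side), and under each the range of the difference when each array is left out in turn (blue bar). Oas1a (1.49) and Isg15 (0.86) lie apart from the others, which range from -0.16 to 0.32.

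Within each group, the highest and the lowest readings of several members came from the same animals. Among the 9 tested member probe sets of the first array type, corn oil replicate 1 was the highest corn oil array in 5 (Oas1a, Mx1, Mx2, Irf7 and Ifit3), or 55.6%, against 22.6% of all tested probe sets. PCN replicate 1 was the highest PCN array in 5 (Oas1a, Mx1, Mx2, Irf7 and Gbp2), or 55.6%, against 9.54% of all. At the low end, corn oil replicate 4 was the lowest corn oil array in 7 (77.8%, against 19.7% of all) and PCN replicate 4 the lowest PCN array in 5 (55.6%, against 25.6% of all). Isg15, measured on other arrays with the same replicate numbers, had the same order at both ends, with replicate 1 highest and replicate 4 lowest in each group. There were exceptions: PCN replicate 4 was not the lowest PCN array for Oas1a, and corn oil replicate 1 was the lowest corn oil array for Gbp2. The 23 antiviral effector probe sets of the first array type that are not members shared the corn oil order, with replicate 1 highest in 12 and replicate 4 lowest in 11. They did not share the PCN order on this type: replicate 1 was highest in 4 (17.4%) and replicate 3 in 11, while replicate 2 was lowest in 11 and replicate 4 in 10. On the second array type the 23 effector probe sets shared both orders. There PCN replicate 1 was highest in 12 (52.2%, against 21.2% of all) and PCN replicate 4 lowest in 14 (60.9%, against 19.8%). Corn oil replicate 1 was highest in 11 (47.8%, against 25.7%) and corn oil replicate 4 lowest in 17 (73.9%, against 19.5%). Replicates that share a number across groups are different animals.

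**Figure D3:**
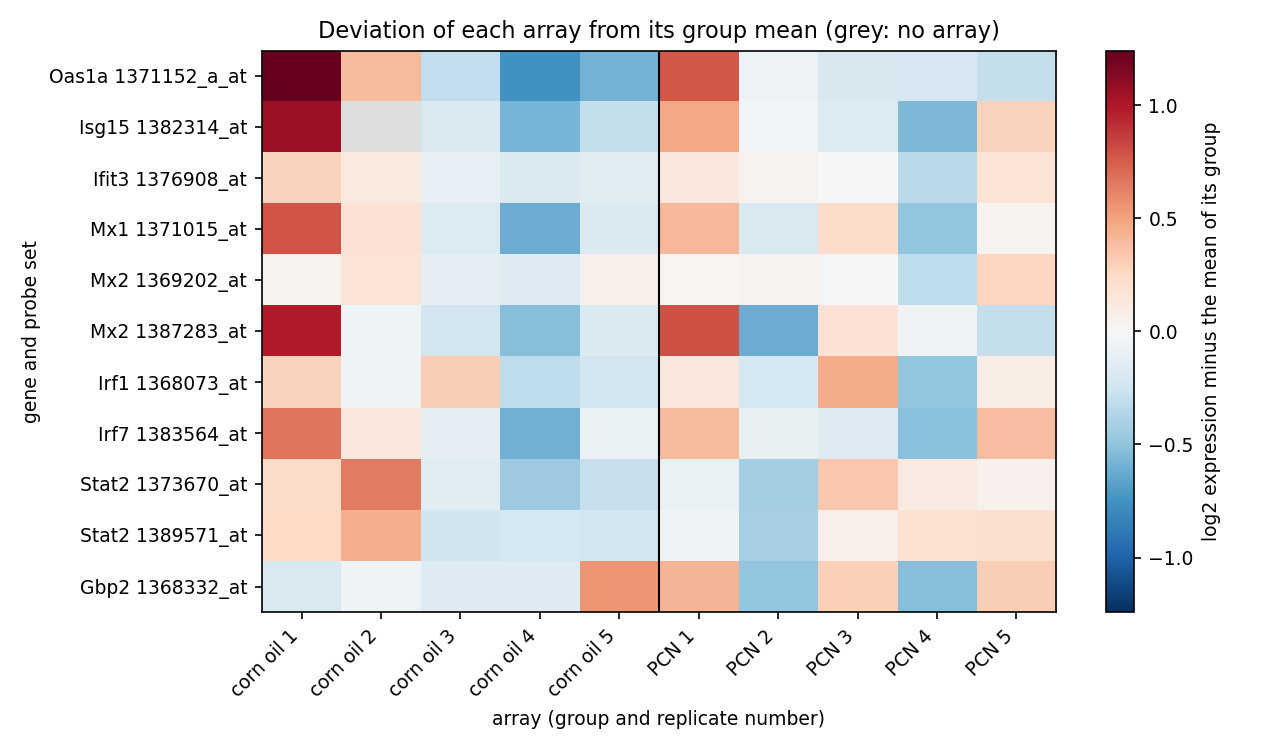
Deviation of each array from the mean of its own group (colour, log2 units, red above and blue below) for each member probe set (rows), with corn oil arrays left of the line and PCN arrays right of it. Corn oil replicate 1 is 1.24 above its group mean for Oas1a and 1.06 above it for Isg15, and corn oil replicate 4 is below its group mean in every row.

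The rest of the interferon pathway was taken from 6 lists with 125 genes that are not members, of which 85 were tested on either array type. Like the members, the lists were chosen with earlier results of these data known, so their shares are descriptions and no independent support. On the first array type 3 of 70 probe sets were called higher (4.29%, against 2.31% of all tested) and none lower, with 12 higher and 2 lower at an unadjusted p below 0.05. There 44 of the 70 differences were positive (62.9%), with a median of 0.08. On the second array type 4 of 49 probe sets, of 3 genes, were called higher (8.16%, against 3.76% of all) and none lower, with 15 higher and 2 lower at an unadjusted p below 0.05. Of all 10693 tested, 1415 were higher and 1504 lower at that level. There 38 of the 49 differences were positive (77.6%, against 4396 of all 10693), with a median of 0.12 against -0.03 for all.

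Of the ligands, Ifnb1 and Ifng on the first array type and Ifnk on the second were below the filter, so no ligand was tested. Among receptors, kinases and Stat factors none of 11 probe sets was called on the first array type (3 higher and 1 lower at an unadjusted p below 0.05). On the second 2 of 7 were called (28.6%, against 3.76% of all called higher). Both belonged to Jak1, the kinase of the type I and type II receptors, with log2 fold changes of 0.42 ± 0.10 and 0.43 ± 0.10 (SE, adjusted p = 0.0317 and 0.0343). The Jak1 calls depended on the scale of the arrays: quantile normalization gave 0.19 and 0.17 (adjusted p = 0.202 and 0.198), and centring on the common probe sets gave 0.14 and 0.15. Leaving out single arrays also ended them, with adjusted p up to 0.0981 for 7 of 9 arrays and up to 0.103 for 8 of 9. Among brakes on the pathway 1 of the 9 probe sets tested on the first type was called (11.1%, against 2.31% of all called higher). None of 4 was called on the second (1 higher at an unadjusted p below 0.05). The call was that of Ptpn2, a phosphatase that removes phosphate from Jak and Stat proteins. Its log2 fold change was 0.47 ± 0.11 (SE, adjusted p = 0.0448).

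Among sensors and Irf factors 2 of 7 were called on the first array type (28.6%, against 2.31% of all called higher). None of 5 was called on the second (1 higher at an unadjusted p below 0.05). Ticam1, the adaptor of the double-stranded RNA receptor Tlr3, rose by 0.85 ± 0.20 (SE, adjusted p = 0.0356) in probe set 1377417_at. Its groups did not overlap, by 0.002, as with 3.99% of all tested probe sets of this type in the same direction. Its other probe set gave 0.23 with an adjusted p of 0.566. Tbk1, the kinase that activates Irf3, rose by 0.49 ± 0.12 (SE, adjusted p = 0.0412), and its groups did not overlap. The calls of Ticam1, Tbk1 and Ptpn2 each ended without any of 8 of the 10 arrays. The adjusted p then ran from 0.0505 to 0.0963 for Ticam1, from 0.0509 to 0.104 for Tbk1 and from 0.0798 to 0.119 for Ptpn2. The arrays whose omission left each call in place were corn oil replicate 2 for all 3, with PCN replicate 1 for Ticam1 and PCN replicate 2 for Tbk1 and Ptpn2.

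Most antiviral effectors had positive differences and few passed the test. On the first array type none of 23 probe sets was called, 4 were higher and none lower at an unadjusted p below 0.05, 18 differences were positive (78.3%), and the median was 0.19. On the second, 2 of 23 were called (8.70%, against 3.76% of all called higher). There 19 were positive (82.6%, against 41.1% of all tested), and the median was 0.14. The calls were Oas1i and Parp14.

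Oas1i, a relative of Oas1a, read 5.97, 5.84, 5.74 and 6.20 in corn oil replicates 1, 3, 4 and 5 and 7.10, 6.78, 6.50, 6.57 and 6.35 in PCN replicates 1 to 5. It is a dim probe set: the corn oil readings lay just above the filter level of 5.51 and below the array medians of 6.25 to 6.33. Every PCN array lay above every corn oil array, as in 10.4% of tested probe sets of this type in either direction. It rose by 0.72 ± 0.14 (SE), or 1.65-fold, with an adjusted p of 0.0187 and an exact two-sided permutation p of 0.00794, the smallest that 126 regroupings can give. The call ended without corn oil replicate 4 (adjusted p = 0.0712), and centring on the shared probe sets lowered the difference to 0.44 (adjusted p = 0.00940). With 16 added to each value before the log was taken, the difference was 0.60 (adjusted p = 0.0203). In Oas1i, corn oil replicate 1 was not the highest corn oil array, unlike in Oas1a. Oas1a and Oas1i were measured on different array types, and shared signal between them was not tested.

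Parp14, an ADP-ribosyltransferase induced by interferon, read 8.41, 8.38, 7.97 and 8.24 in corn oil replicates 1, 3, 4 and 5 and 9.36, 8.84, 9.12, 8.75 and 8.68 after PCN. Its groups did not overlap, as with 5.06% of all tested probe sets of this type in the same direction. It rose by 0.70 ± 0.14 (SE), or 1.63-fold, with an adjusted p of 0.0237. The call ended when corn oil replicate 4 (adjusted p = 0.0805) or PCN replicate 3 (0.0589) was omitted, and centring lowered the difference to 0.42 (0.0104). On the first array type its probe set gave 0.35 ± 0.13 (SE, adjusted p = 0.186).

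Among genes of interferon-gamma and antigen processing none was called on either array type, with 0 higher and 1 lower of 20 at an unadjusted p below 0.05 on the first and 1 higher and 2 lower of 10 on the second. Positive differences were 8 of 20 and 4 of 10. The smallest p values were those of Cxcl11, a chemokine that draws T cells (0.48 ± 0.13, adjusted p = 0.0547), and RT1-Ba, a class II antigen-presenting chain (-0.29 ± 0.09, adjusted p = 0.0815), both on the second array type.

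**Figure D4:**
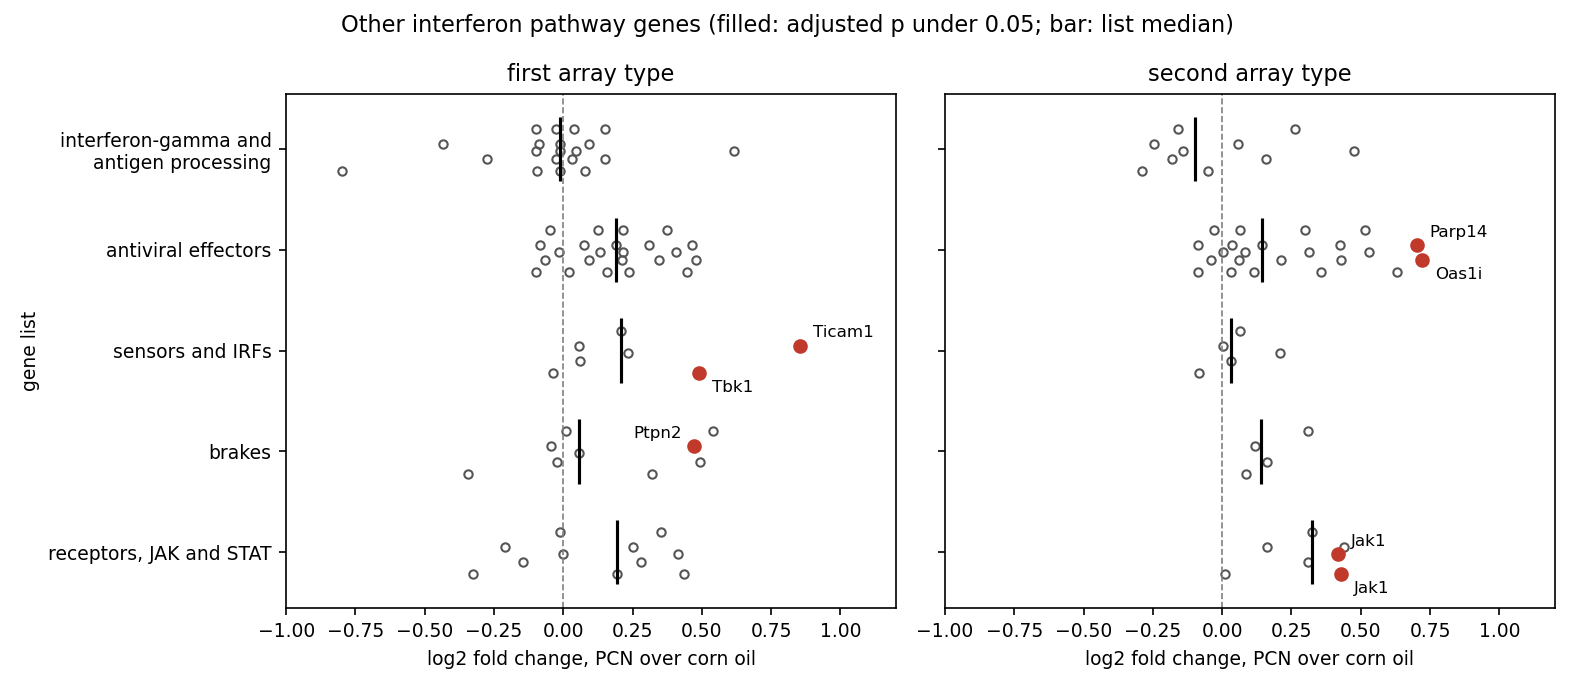
Log2 fold change of PCN over corn oil (horizontal axis) for each tested probe set of the other interferon pathway lists (rows), by array type, with filled points for adjusted p below 0.05 and a bar at each list's median. Antiviral effectors have medians of 0.19 and 0.14, and the list of interferon-gamma and antigen processing has points on both sides of 0 on each array type.

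Markers of other cell types were measured beside these values. At an unadjusted p below 0.05, 1219 of all 11106 tested were higher and 745 lower on the first type. On the second, 1415 of 10693 were higher and 1504 lower. Of 10 probe sets for Kupffer cells and macrophages none was called on the first type, and none passed an unadjusted p below 0.05. Their summed level, as log2 of the sum, was 13.82 to 14.09 in corn oil and 13.74 to 14.38 after PCN. On the second array type, that of Isg15, Oas1i and Parp14, all 3 were higher, 2 of them at an unadjusted p below 0.05. Of the 3, 1 was called (33.3%, against 3.76% of all called higher), for Cd163 (0.58 ± 0.14, adjusted p = 0.0371). The other Cd163 probe set gave 0.40 ± 0.16 (adjusted p = 0.136). The summed level was 9.72 to 10.23 in corn oil and 10.01 to 10.72 after PCN. Lymphocyte markers were called in 0 of 5 and 0 of 4 probe sets, with 1 lower at an unadjusted p below 0.05 and summed levels of 9.72 to 10.21 in corn oil and 9.88 to 10.25 after PCN on the first. On the second array type, where Isg15 and Oas1i lie, all 4 were lower at an unadjusted p below 0.05, with a summed level of 8.80 to 8.88 in corn oil and 8.58 to 8.72 after PCN. Of neutrophil markers 0 of 2 were called (1 higher at an unadjusted p below 0.05), with summed levels of 8.35 to 8.85 and 8.69 to 10.19. These were Lcn2 (0.70) and S100a9 (0.58). Below the filter were S100a8 (0.09), Cxcr2 (-0.15), Mmp8 (-0.15) and, on the second type, Csf3r (-0.11), so the level rests on 2 genes that the others do not all follow. Of plasmacytoid dendritic cell markers 0 of 4 were called (none at an unadjusted p below 0.05), with 12.01 to 12.99 and 12.10 to 12.73. That last level was mostly Bst2 (means of 12.19 in corn oil and 12.26 after PCN). Bst2 was also counted among the antiviral effectors and Irf8 among the sensors, so the level is no separate measure of these cells. Endothelial markers were called in 0 of 4 on each type (1 higher at an unadjusted p below 0.05 on the second), with 11.93 to 12.39 and 11.85 to 12.06 on the first and 11.04 to 11.28 and 11.21 to 11.61 on the second. No marker reads 0 on this log2 scale. The part of these cells in the differences was not tested.

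The genes whose readings across the 10 arrays of the first type were most like those of Oas1a were Adcy4, Poglut3 and Nherf1, with Pearson correlations of 0.96, 0.96 and 0.95. All 3 were highest on the same array as Oas1a, PCN replicate 1, and of them Nherf1 was called higher (1.16 with an adjusted p of 0.00536). For Stat2 the nearest were Mkrn1, Col14a1 and Bnip2 (0.99, 0.98 and 0.97) with 1373670_at, and Aldh9a1, Higd2a and Xpo6 (0.98, 0.97 and 0.97) with 1389571_at. No interferon pathway gene of the lists was among these 9. The wider lists hold only 70 of the 11106 probe sets tested on this type, so their absence from 9 says little. These correlations share the arrays and the group difference, and they are descriptions with no test.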

How the data were processed

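Rat liver RNA was measured on 2 Affymetrix array types. Each deposited value is the log2 expression of a probe set. The submitters' processing notes name MAS5 without a version, whereas summarization, normalization and genome build are not given in the sources used here, and base 2 was inferred from the range of the values. Each table has its own scale, so each was tested alone and as deposited. Gene names came from the platform annotation, updated through RefSeq. After removal of 57 controls per type and of dim probe sets (mean under the 30th percentile, at 6.67 and 5.51), 11106 and 10693 were tested.

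The groups were compared by limma 3.58.1 (R 4.3.3), with treatment as the only term and an intensity trend, two-sided, and Benjamini-Hochberg adjustment over all tested probe sets of a type (threshold 0.05). Single values had exact permutation tests. The procedure was tested on simulated data. The simulated noise was independent between arrays, with no outlying arrays and no sets of arrays, so it does not bear on calls that turn on these. Named genes were all members and, of each pathway list, up to 6 called genes with the largest change or the 2 with the smallest p. Added to these were the known PCN targets and, for 3 member probe sets, the 3 most correlated genes. The members and lists were chosen with earlier results of these data known. Alternatives were other filters, scalings, a log offset, variance models, a replicate block, a term for 2 sets of arrays, and leaving out each array. The combination of leaving out corn oil replicate 1 and centring was added after seeing the data.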

Additional observations from a re-analysis of the deposited data

Results flagged for a closer look

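A few arrays stood far from the other arrays of their own group by Dixon's criterion, 7 of the 52 groups of readings looked at, where chance gives about 1 in 20. For 2 members this was so: Oas1a read 11.39 in PCN replicate 1 (next array 10.55), and Gbp2 read 7.63 in corn oil replicate 5 (next array 7.02). For Ptpn2 it was corn oil replicate 2 at 8.71 (next 8.33). Among the known PCN targets, Por read 9.12 in corn oil replicate 2 with probe set 1368213_at (next 11.04) and 12.35 in PCN replicate 5 with probe set 1387109_at (next 12.71). Abcb1a read 9.89 in PCN replicate 2 (next 9.44), and Cyp3a23-3a1 read 13.72 in PCN replicate 4 (next 13.80).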

How the results depend on the processing

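With 4 or 5 arrays per group, calls near the threshold moved with the settings more than directions did. The rise of Oas1a was positive in 14 of 14 alternatives and 10 of 10 omissions of an array, and was called in 11 of the 14. The count of member calls on the first array type fell from 1 to 0 with robust variances (adjusted p of Oas1a 0.0596), with an unmoderated test (0.132) and when a term marked 2 sets of arrays, known from earlier results (log2 fold change 1.0, adjusted p 0.287). It lay between 0 and 1 over the omissions. Isg15 was positive in 13 of 13 alternatives and 9 of 9 omissions (0.66 to 1.21). The count on the second type went from 0 to 1 with centring, the replicate block (adjusted p 0.0470), array weights (0.0377) and the added combination, and lay between 0 and 1 over the omissions. Called genes of the wider lists on the first type went from 3 to 1 with no filter, 1 with the replicate block, 11 with array weights, 0 unmoderated and 1 with the term for 2 sets, a lower call with none of the 3 rises kept, and from 0 to 3 over the omissions. On the second type they went from 3 to 11 with centring (2 higher), 10 with array weights (9 higher), 0 unmoderated and 7 with the added combination (3 higher), and from 0 to 5 over the omissions. Uncalled differences changed sign in some settings. With the term for 2 sets of arrays every member of the first type except Oas1a was negative: Mx1 was -0.25, Mx2 -0.28, Irf7 -0.088, Stat2 -0.023 and -0.039, and Ifit3 -0.086. That term overlaps largely with treatment, so they cannot be fully told apart. Ifit3 was also -0.036 with a trimmed mean and -0.073 with centring, and Irf1 was 0.0020 with array weights. Over the omissions Mx1 ran from -0.036 to 0.31 and Ifit3 from -0.037 to 0.091. The causes were not tested. Deviations of same-numbered arrays correlated between -0.30 and 0.28 on the first type and between 0.02 and 0.20 on the second, so the numbers were not taken as pairs. The PCN array correlated best with the corn oil array of its own number in 2 of 5 and 1 of 4. The replicate block took the calls over all probe sets from 361 to 239 and from 577 to 203.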

Other observations

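Beyond the calls, several antiviral effectors lay at an unadjusted p below 0.05, all of them higher after PCN, and none passed the adjustment. On the first type 4 of 23 effector probe sets were higher at that level, against 1219 of all 11106 (745 lower). On the second 7 of 23 were, the called Oas1i and Parp14 among them, against 1415 of all 10693 (1504 lower). The uncalled effectors named here were chosen after their values were seen. On the second array type these were Rtp4, a chaperone-like protein induced by interferon (0.63 ± 0.20 SE, adjusted p = 0.0826), Trim25, the ubiquitin ligase that acts on the RNA sensor Rigi (0.43 ± 0.14, 0.0902), Ifi44 (0.36 ± 0.13, 0.120) and both probe sets of Nmi, a partner of Stat proteins (0.53 ± 0.22, 0.149, and 0.51 ± 0.20, 0.126). On the first they were Eif2ak2, the kinase that halts translation on sensing double-stranded RNA (0.37 ± 0.13, 0.160), Ifitm3, which blocks virus entry (0.47 ± 0.21, 0.273), Isg20 (0.21 ± 0.08, 0.189) and Parp14. Irf9, the DNA-binding subunit of the type I complex, gave 0.41 ± 0.17 (adjusted p = 0.235) and, on the second type, 0.44 ± 0.15 (0.0987). Effectors of the first type with differences near 0 included Ifit1 (-0.10 ± 0.14, 0.752), Rsad2 (0.13 ± 0.23, 0.807) and Oasl (-0.07 ± 0.12, 0.812).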
